A study of Homo sapiens with 18 samples.

Results

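In HL-60 leukaemia cells, 5 genes outside the inflammatory programme stood higher with the drug NTX-301 than with decitabine: MMP2, AHNAK, F2RL3, KCNH2 and RHEX. They were chosen for that difference from earlier results of these same data, so their HL-60 differences are given as a description, without a test. They are 5 of the 17110 genes listed for HL-60. In the second line of the study, MOLM-13, 2 of them were listed, AHNAK and RHEX, among 17475 genes. MMP2, F2RL3 and KCNH2 were not listed for MOLM-13 and have no value there, as was the case for 1593 of the HL-60 genes.

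RNA came from HL-60 and MOLM-13, 2 established human acute myeloid leukaemia lines, after 48 h (day 2 in the sample titles) with the solvent dimethyl sulfoxide (DMSO), with decitabine (DAC) or with NTX-301, and was read by stranded total RNA sequencing. Each of the 6 groups held 3 replicates. The treatment label gives 30 nM (HL-60) or 15 nM (MOLM-13) without making clear whether both drugs were given at that concentration, so dose and line cannot be told apart, and a difference between drugs may also be one of dose. DAC is a deoxycytidine analogue that is built into DNA and traps DNA methyltransferases, so that cytosine methylation at CG pairs is lost as cells divide; NTX-301 is an inhibitor of the same enzymes. The treatment label speaks of cells treated in triplicate on multiwell plates and names no separate cultures, so errors and p-values measure only the spread between these samples, which may be technical. HL-60 is a promyelocytic line, and all 6 granulocytic precursor markers examined (MPO, ELANE, PRTN3, AZU1, CTSG and CD33) were listed for it, as for MOLM-13.

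The authors deposited 1 log2 value per gene and sample. A difference of 1 is a doubling of the deposited value. Low values were drawn together over the samples of a line, so differences of low genes are understated, and read depth is unknown. The values are not per length and do not allow levels of different genes to be compared. Within a group, the median gene had an SD of 0.027 to 0.031 in HL-60 and of 0.037 to 0.043 in MOLM-13. These medians do not show whether a single library stood apart.

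The 5 genes encode proteins of different kinds. MMP2 (NCBI Gene 4313) is gelatinase A, a secreted protease that cuts type IV collagen and denatured collagen, and it is made as an inactive precursor that the membrane protease MMP14 activates together with the inhibitor TIMP2. AHNAK (79026) is a very large scaffold protein found under the plasma membrane, where it binds S100A10 and annexin A2, and it also contacts calcium channel beta subunits. F2RL3 (9002) is the thrombin receptor PAR4, a G protein coupled receptor that is opened by cleavage of its own outer end and is best known from platelets. KCNH2 (3757) is the pore subunit of the hERG potassium channel, known for repolarizing heart muscle and also described in leukaemia cells. RHEX (440712) is a membrane-bound regulator of haemoglobinization that takes part in erythropoietin receptor signalling in erythroid progenitors.

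Because both drugs act on CG methylation, the 250 bases before the transcript start are shown for the 4 genes with an entry in the RefSeq promoter table (build GRCh38.p14), with every CG pair in capitals and each sequence on the gene's strand. MMP2 had no entry. KCNH2 had 5 start sites, whose windows held 4 to 29 CG pairs, and the window with the most is shown.
AHNAK, chr11:62545827-62546076, minus strand: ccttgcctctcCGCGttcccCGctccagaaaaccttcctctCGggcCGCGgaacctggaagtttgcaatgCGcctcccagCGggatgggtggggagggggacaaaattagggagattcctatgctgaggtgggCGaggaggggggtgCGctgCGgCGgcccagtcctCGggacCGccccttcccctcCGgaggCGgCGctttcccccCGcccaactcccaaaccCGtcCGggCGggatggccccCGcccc
F2RL3, chr19:16888749-16888998, plus strand: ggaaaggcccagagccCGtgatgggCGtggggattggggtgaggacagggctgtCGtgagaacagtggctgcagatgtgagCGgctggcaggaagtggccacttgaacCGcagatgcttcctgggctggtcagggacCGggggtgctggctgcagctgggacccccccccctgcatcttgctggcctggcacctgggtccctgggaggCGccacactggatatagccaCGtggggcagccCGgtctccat
KCNH2, chr7:150978322-150978571, minus strand: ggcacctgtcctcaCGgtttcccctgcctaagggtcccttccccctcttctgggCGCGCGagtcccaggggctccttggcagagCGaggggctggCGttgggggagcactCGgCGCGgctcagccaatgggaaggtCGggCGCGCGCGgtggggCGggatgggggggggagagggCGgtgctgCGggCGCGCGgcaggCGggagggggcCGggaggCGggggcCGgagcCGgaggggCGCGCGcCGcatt
RHEX, chr1:206083345-206083594, plus strand: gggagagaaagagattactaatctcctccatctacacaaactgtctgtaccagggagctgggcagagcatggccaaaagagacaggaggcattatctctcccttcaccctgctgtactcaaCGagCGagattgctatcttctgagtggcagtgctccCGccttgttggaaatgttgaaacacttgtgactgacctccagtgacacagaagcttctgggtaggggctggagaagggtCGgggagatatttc

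The windows differ widely in CG content. The KCNH2 window held 29 CG pairs and the AHNAK window 22, against a median of 11 over 35116 windows of all genes. F2RL3 held 9 and RHEX 4. GC content was 77.2% for KCNH2, 70.0% for AHNAK, 66.8% for F2RL3 and 51.2% for RHEX. A search on both strands for the GC box GGGCGG found 4 matches in the AHNAK window and 2 in the KCNH2 window shown, which overlap CG pairs by their letters; 42.6% of all windows held at least 1. The letters AGATAA occurred once, in the RHEX window, on the minus strand 159 bases before the start, and in 9.17% of all windows. GAGGAA occurred once in the AHNAK window and in 23.6% of all windows. TGANTCA (6.57% of all windows) and TGTGGT (11%) had no match in the 4 windows shown. Windows rich and poor in CG were thus both present among the 4 genes, and methylation itself was not measured.

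Of the 5 genes, MMP2 had the widest gap between the drugs. Its log2 values in HL-60 were 9.15, 9.23 and 9.13 in DMSO, 9.35, 9.21 and 9.31 with DAC, and 10.54, 10.52 and 10.55 with NTX-301. All 3 NTX-301 values lay above the other 6, while the DAC and DMSO values overlapped. The group means were 9.17 ± 0.053, 9.29 ± 0.072 and 10.54 ± 0.018 (SD, n = 3). NTX-301 exceeded DAC by 1.25 (SE of limma 0.040), a 2.38-fold higher deposited value, and exceeded DMSO by 1.37, whereas DAC exceeded DMSO by 0.12.

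AHNAK read 11.95, 11.86 and 11.87 in DMSO, 12.35, 12.28 and 12.37 with DAC, and 13.26, 13.26 and 13.25 with NTX-301. The 3 groups did not overlap, in the order DMSO, DAC, NTX-301, and the NTX-301 replicates were close together. The difference NTX-301 minus DAC was 0.92 (SE 0.030), or 1.90-fold. Against DMSO the scaffold gene was higher by 1.36 with NTX-301 and by 0.44 with DAC.

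F2RL3 read 6.69, 6.69 and 6.75 in DMSO, 6.99, 6.89 and 6.99 with DAC, and 7.76, 7.87 and 7.96 with NTX-301. The order was again DMSO, DAC, NTX-301 without overlap, with the widest spread among the NTX-301 replicates (7.86 ± 0.10, SD, n = 3). NTX-301 exceeded DAC by 0.91 (SE 0.050), or 1.88-fold, and exceeded DMSO by 1.15, while DAC exceeded DMSO by 0.24.

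KCNH2 showed another pattern. It read 7.85, 7.97 and 7.90 in DMSO, 9.21, 9.10 and 9.24 with DAC, and 9.55, 9.57 and 9.50 with NTX-301. Most of the distance from DMSO was already present with DAC, and the lowest NTX-301 value lay above the highest DAC value. The channel gene stood 1.28 higher with DAC than in DMSO and 1.64 higher with NTX-301, so the drugs differed by 0.36 (SE 0.045), or 1.28-fold.

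RHEX stood furthest from DMSO of the 5. Its values were 9.66, 9.68 and 9.56 in DMSO, 10.89, 10.90 and 10.88 with DAC, and 11.64, 11.64 and 11.69 with NTX-301. The 3 groups lay far apart relative to their spread. NTX-301 exceeded DMSO by 2.03 (SE 0.033), a 4.08-fold higher deposited value, and DAC exceeded DMSO by 1.26. The difference between the drugs was 0.77 (SE 0.033), or 1.70-fold.

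**Figure D1:**
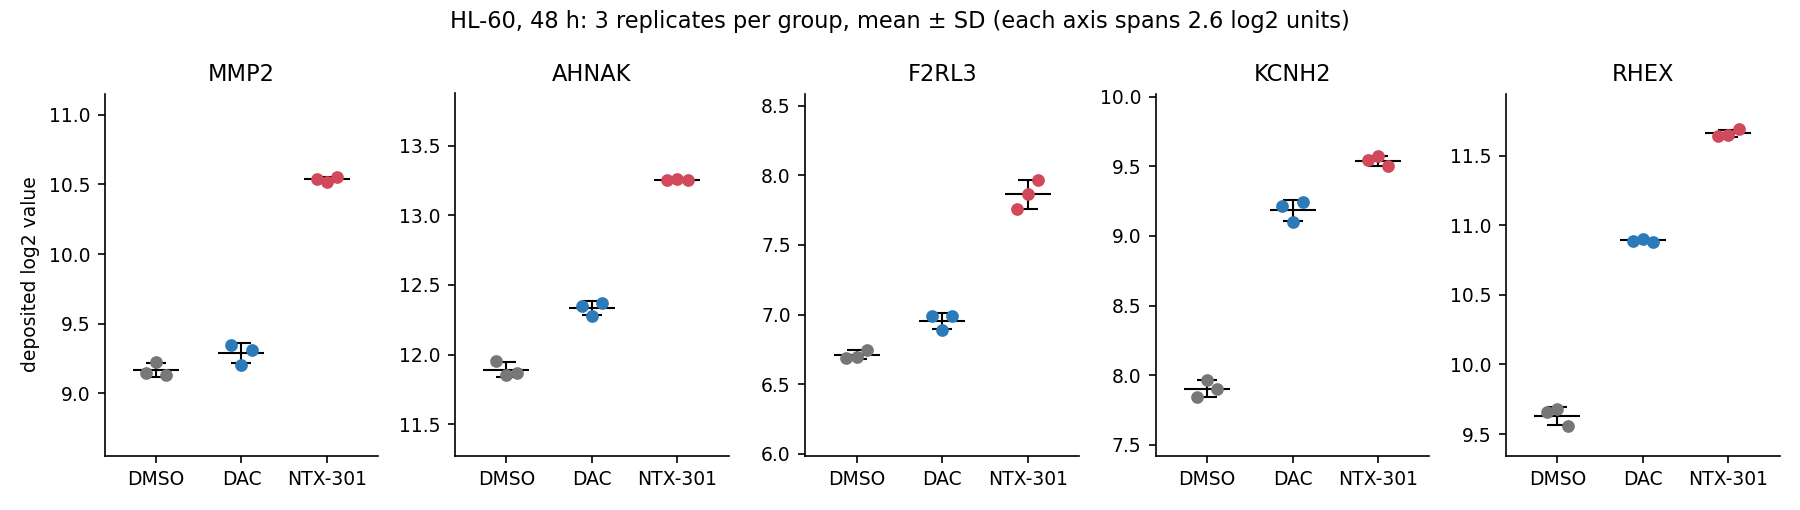
Deposited log2 values of the 5 genes in HL-60, by treatment; points are the 3 replicates, lines the mean and its SD, and each vertical axis spans the same 2.6 log2 units. The NTX-301 points lie above all DAC and DMSO points in each panel, and the DAC points lie near DMSO for MMP2 (9.29 against 9.17) but near NTX-301 for KCNH2 (9.18 against 9.54).

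A pair of patterns was present among the 5 genes. In MMP2, F2RL3 and AHNAK, DAC gave 8.70%, 21.2% and 32.3% of the log2 change that NTX-301 gave over DMSO. In RHEX and KCNH2 it gave 62.1% and 78.2%. For comparison, 21 HL-60 genes stood at least 1 log2 unit higher with NTX-301 than in DMSO, the 5 genes among them, and over those 21 the median share was 60.1%, with 7 genes under 50%. MMP2 had the lowest share of the 21. Among the other genes, the share ran from 25.4% for PLEKHO1, an actin and membrane adaptor, to 150.4% for the hexokinase HK3, which DAC raised more than NTX-301 did. The share uses the contrasts by which the 5 genes were chosen and is a description.

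**Figure D2:**
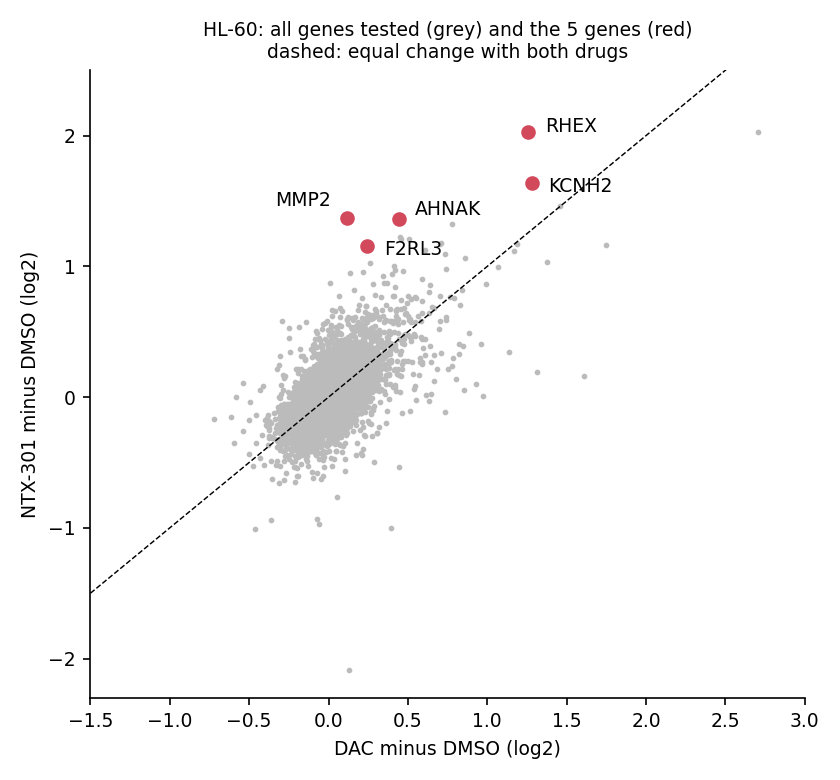
Log2 difference from DMSO in HL-60 with DAC (horizontal) and with NTX-301 (vertical) for all 17046 genes tested (grey) and the 5 genes (red); the dashed line marks equal change. MMP2, F2RL3 and AHNAK lie close to the vertical axis (0.12, 0.24 and 0.44 with DAC), and KCNH2 and RHEX lie far to the right (1.28 and 1.26) and above the line.

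Every NTX-301 value lay above every DAC value in 5 of the 5 genes, as in 22.2% of the 17046 genes tested, and above every DMSO value in 5 of 5 (23.3% of all genes). Every DAC value lay above every DMSO value in 4 of 5, MMP2 being the exception (19.3% of all genes). The full order NTX-301 over DAC over DMSO held in the same 4, against 4.17% of all genes. The choice of the genes fixes these counts, and nothing is read from them. Ranked by NTX-301 minus DAC, MMP2, AHNAK and F2RL3 were 1, 2 and 3 of 17046, RHEX was 9 and KCNH2 161. The genes between F2RL3 and RHEX were NLRC3, SLC2A3, FSCN1, CD48 and SIGLEC6. Around KCNH2 stood GPR146 just above it (0.357) and CCR1 just below (0.354). Ranked by NTX-301 minus DMSO the order was RHEX 2, KCNH2 3, MMP2 5, AHNAK 6 and F2RL3 15, with HK3 (1.16) just above F2RL3 and CD82 (1.13) just below. In DAC minus DMSO, KCNH2 was 7 and RHEX 8, but AHNAK was 123, F2RL3 424 and MMP2 1401.

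The genes with the HL-60 profile closest to each of the 5 are given as a description, since closeness was judged on the samples that chose the 5. Likeness was the root mean square difference of log2 values over the 9 HL-60 samples, each gene set to its own DMSO mean. Closest to MMP2 were F2RL3 (0.156), AHNAK (0.192) and SIGLEC6 (0.217), a lectin receptor for sialic acid. AHNAK was closest to SIGLEC6 (0.0898), to the galectin gene LGALS1 (0.105) and to the interleukin receptor gene IL9R (0.112). F2RL3 was closest to PLEKHO1 (0.0943), to the kinesin gene KIFC3 (0.133) and to SIGLEC6 (0.135). KCNH2 and RHEX were near each other (0.235). KCNH2 was nearest to IKZF2, an Ikaros family transcription factor (0.157), with CR1, the complement receptor, at 0.288. RHEX had IKZF2 at 0.351 and GATA2, a transcription factor of blood stem cells and mast cells, at 0.495. IKZF2 and CR1 stood about equally high with both drugs (NTX-301 minus DAC 0.0003 and -0.015), whereas GATA2 differed by 0.55.

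In MOLM-13, which was not used to choose the genes, AHNAK and RHEX could be tested. AHNAK rose slightly with both drugs. It read 16.53, 16.49 and 16.51 in DMSO, 16.65, 16.62 and 16.62 with DAC, and 16.67, 16.63 and 16.66 with NTX-301. Both treated groups lay above DMSO and overlapped each other. NTX-301 exceeded DMSO by 0.15 (SE 0.024, adjusted p = 0.000403 by limma with Benjamini-Hochberg adjustment), or 1.11-fold, and DAC did by 0.12 (adjusted p = 0.00206). The difference between the drugs was 0.026 (SE 0.024, adjusted p = 0.573).

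RHEX in MOLM-13 read 10.02, 10.01 and 10.04 in DMSO, 10.34, 10.21 and 10.11 with DAC, and 10.26, 10.20 and 10.16 with NTX-301. Every treated value lay above every DMSO value, and the treated groups overlapped, with a wide spread for DAC (SD 0.11, n = 3). The difference from DMSO was 0.18 with NTX-301 (SE 0.053, adjusted p = 0.0151 by limma) and 0.20 with DAC (adjusted p = 0.0123). Between the drugs it was -0.016 (SE 0.053, adjusted p = 0.898). Without NTX-301 replicate 1, the NTX-301 difference was 0.15 and no longer passed (adjusted p = 0.0620).

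Thus 2 of the 2 genes listed for MOLM-13 rose with NTX-301 against DMSO, where 20.3% of the 17475 genes tested rose, and 2 of 2 rose with DAC, where 15.4% did. Neither passed the test between the drugs, where 7.42% of genes did in either direction. For NTX-301 minus DMSO, the MOLM-13 difference minus the HL-60 difference was -1.22 for AHNAK (SE 0.038) and -1.85 for RHEX (SE 0.062), so both were smaller in MOLM-13. These gaps carry no test, because the HL-60 values chose the genes, and the lines differ in stated dose and, by their gene lists, appear to have been normalized apart. For AHNAK, the MOLM-13 level in DMSO was 16.51 ± 0.022 and the HL-60 level 11.89 ± 0.055 (SD, n = 3), so the smaller change was seen in the line with the higher deposited value, on scales set apart. RHEX stood at 10.02 ± 0.014 and 9.63 ± 0.063. By group means RHEX was ordered DMSO, DAC, NTX-301 in HL-60 and DMSO, NTX-301, DAC in MOLM-13. The MOLM-13 drug groups did not differ beyond their spread. Groups of different lines are not ordered against each other, because their scales appear set apart.

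**Figure D3:**
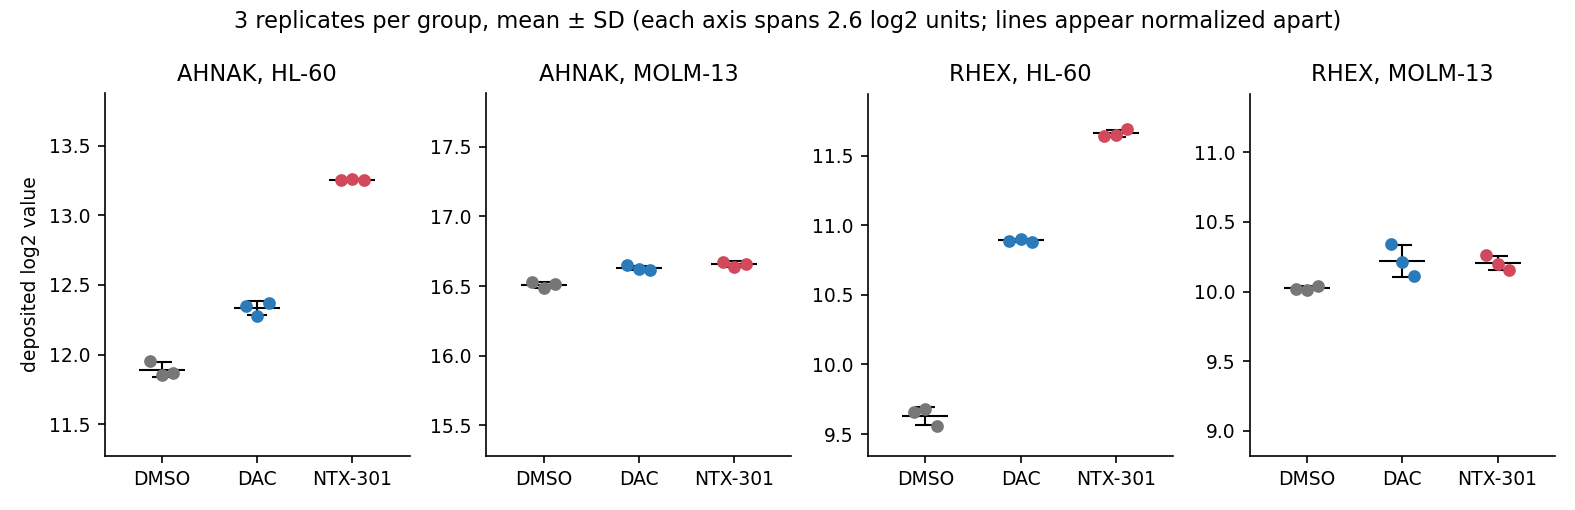
Deposited log2 values of AHNAK and RHEX in HL-60 and MOLM-13, by treatment, with 3 replicates, mean and SD, on axes that each span 2.6 log2 units. The HL-60 groups step up from DMSO to DAC to NTX-301, whereas the MOLM-13 drug groups lie 0.12 to 0.20 above DMSO and overlap each other.

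The genes that match the HL-60 profiles were also measured in MOLM-13, where they were not chosen by value. Of the 7 outside the 5 genes that were listed there, KIFC3 rose with NTX-301 against DMSO by 0.42 (adjusted p = 5.19e-05 by limma), PLEKHO1 by 0.31, IL9R by 0.22, GATA2 by 0.19 and LGALS1 by 0.11. Of all genes tested there, 20.3% rose in that contrast. SIGLEC6 differed by 0.17 (adjusted p = 0.0541) and IKZF2 by 0.090 (adjusted p = 0.200). CR1 was not listed. For none of the 7 did NTX-301 minus DAC pass in MOLM-13, where 7.42% of all genes did in either direction. The nearest was LGALS1 at 0.073 (adjusted p = 0.0695 by limma).

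The activation partners of MMP2 were higher with NTX-301 as well. In HL-60 MMP14 read 6.80, 6.81 and 6.83 in DMSO, 7.04, 7.01 and 6.90 with DAC, and 7.33, 7.34 and 7.40 with NTX-301. TIMP2 read 7.06, 7.14 and 7.12, then 7.29, 7.39 and 7.24, then 7.67, 7.74 and 7.57 in the same order of groups. In both genes the 3 groups did not overlap. MMP14 rose by 0.37 over DAC (SE 0.040, adjusted p = 9.95e-06 by limma) and by 0.54 over DMSO, and TIMP2 by 0.35 (SE 0.050, adjusted p = 0.000107) and 0.56. TIMP1, which inhibits several matrix metalloproteinases, rose by 0.43 over DAC and 0.77 over DMSO. ADAM15, a membrane-bound disintegrin protease, fell by 0.25 against DAC and by 0.26 against DMSO.

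**Figure D4:**
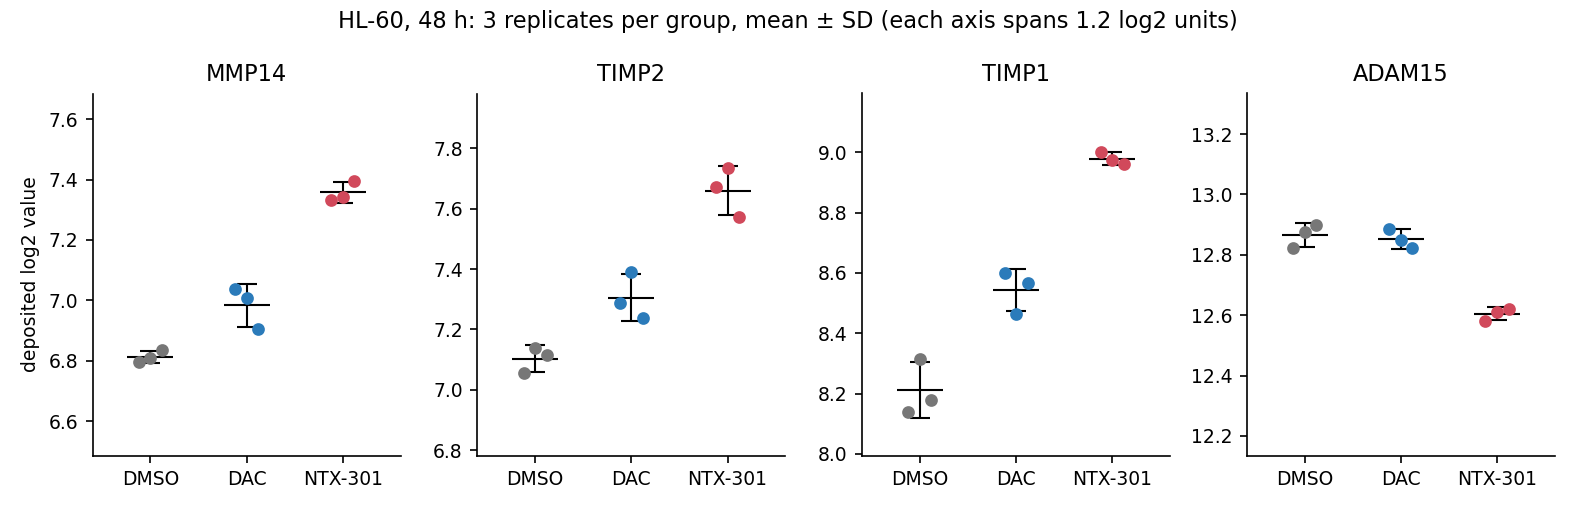
Deposited log2 values in HL-60 of MMP14 and TIMP2, the activation partners of MMP2, and of TIMP1 and ADAM15, by treatment, with 3 replicates, mean and SD, on axes that each span 1.2 log2 units. MMP14, TIMP2 and TIMP1 step up to the NTX-301 group, and ADAM15 is lower there (12.60 against 12.85 with DAC).

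Over the whole list of 35 other matrix metalloproteinases, their inhibitors and sheddases, 12 were listed and tested in HL-60. With NTX-301 against DAC, 4 rose and 3 fell, where 15.4% of all genes rose and 15% fell; the list's median difference was 0.020, beside 0.00045 over all genes. Against DMSO, 6 rose and 1 fell (18.3% and 19.2% of all genes), with a median of 0.12. MMP9 and MMP8, the gelatinase and collagenase of neutrophils, were not listed for either line. In MOLM-13, 5 of 14 rose with NTX-301 against DMSO and 2 fell (20.3% and 24.8% of all genes), among them MMP19 (0.33), ADAM8 (0.32) and TIMP2 (0.30) higher; under quantile normalization 9 rose and 1 fell. There MMP14 differed by 0.038 (adjusted p = 0.304 by limma).

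The AHNAK partners moved little between the drugs in HL-60. Of 13 genes on the list, 7 were tested: 2 rose with NTX-301 against DAC and none fell (15.4% and 15% of all genes), namely the kinase gene PRKCA (0.22) and the calcium channel subunit CACNB3 (0.057). Against DMSO all 7 rose, where 18.3% of all genes did, with a median of 0.14, led by PLCG1, a phospholipase that AHNAK can activate (0.57), and DYSF, the membrane repair protein dysferlin (0.37). With each sample centred on its median, 4 of the 7 rose, and leaving out 1 replicate at a time gave 5 to 7. Of the 7, CACNB3 (4.76 in DMSO, 4.82 with NTX-301) and S100A10 (4.99 and 5.08) had low values. S100A10 rose by 0.097, and its partner ANXA2 was not listed for HL-60. In MOLM-13, 5 of 9 rose with NTX-301 against DMSO (20.3% of all genes), including S100A10 (0.29), MYOF (0.24) and CACNB4 (0.22), and ANXA2 fell by 0.13.

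Signalling genes around F2RL3 moved in both directions. The other protease-activated receptor genes F2R, F2RL1 and F2RL2 were not listed for HL-60. F2R was listed for MOLM-13, where it rose with NTX-301 against DAC by 0.20 (adjusted p = 0.0493 by limma) and did not pass against DMSO (0.005, adjusted p = 0.946). Of 24 list genes tested in HL-60, 7 rose and 9 fell with NTX-301 against DAC (median -0.0088; 15.4% and 15% of all genes rose and fell), and 7 rose and 8 fell against DMSO (median 0.011; 18.3% and 19.2%). The arrestin gene ARRB1 rose by 0.37 against DAC, whereas the receptor kinase gene GRK6 fell by 0.31 and CTSG, a granule protease that can cleave PAR4, fell by 0.30. Against DMSO ARHGEF12 rose by 0.53 and the G protein regulator gene RGS2 by 0.42. Centring each sample on its median left 3 higher against DAC. In MOLM-13, 10 of 25 rose and 6 fell with NTX-301 against DMSO (20.3% and 24.8% of all genes; 2 fell under quantile normalization), PLCB2 by 0.46, PROCR by 0.31 and ARHGEF11 by 0.28 among those that rose.

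Other potassium channel genes moved in both directions. In HL-60, 17 of 46 were tested, and KCNH4 was the 1 other gene of its family listed. With NTX-301 against DAC, 5 rose and 3 fell (median 0.0038), where 15.4% and 15% of all genes did, and against DMSO 4 rose and 4 fell, where 18.3% and 19.2% did. The calcium-activated channel gene KCNN4 rose by 0.28 against DAC and KCNC4 by 0.20, while KCNK6 fell by 0.16. KCNE3, an accessory subunit, rose by 0.30 against DMSO and KCNQ5 fell by 0.28. With samples centred on their medians 3 rose against DAC, and leaving out 1 replicate at a time took the count of 4 against DMSO to between 2 and 5. In MOLM-13, 5 of 22 rose and 3 fell with NTX-301 against DMSO (20.3% and 24.8% of all genes; 5 fell with centred samples), and KCNQ3 (0.64), KCNMA1 (0.50) and KCNN4 (0.26) rose most.

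Erythropoietin receptor and erythroid genes, the setting in which RHEX is known, were divided too. The genes of red cell identity GATA1, TAL1, ALAS2, HBB and SLC4A1 were not listed for HL-60. Of the 25 of 42 tested, 6 rose and 7 fell with NTX-301 against DAC (median -0.016), where 15.4% and 15% of all genes did. Against DMSO 10 rose and 8 fell (median 0.015), where 18.3% and 19.2% did. The signal transducer STAT5A read 8.28, 8.29 and 8.31 in DMSO, 8.77, 8.70 and 8.69 with DAC, and 8.999, 8.90 and 8.99 with NTX-301. It rose by 0.24 over DAC (SE 0.040, adjusted p = 0.000408 by limma) and by 0.67 over DMSO, with no overlap of groups. ZFPM1, a GATA factor partner, rose by 0.23 and 0.42, and the phosphatase gene INPP5D by 0.24 and 0.087. LMO2 fell by 0.16 against DAC and by 0.33 against DMSO. The receptor gene EPOR rose by 0.13 against DMSO, while its NTX-301 minus DAC difference was -0.038 (adjusted p = 0.595). In MOLM-13, 3 of 24 rose and 7 fell with NTX-301 against DMSO (20.3% and 24.8% of all genes), and under quantile normalization 6 rose and 4 fell. There NFE2 and ZFPM1 rose by 0.19 each, and the transferrin receptor gene TFRC fell by 0.40.

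The genes next to each of the 5 were taken from the RefSeq gene order, the 2 nearest listed genes on each side, which gives 20 in HL-60. With NTX-301 against DAC, 8 of the 20 rose and 3 fell (15.4% and 15% of all genes). In MOLM-13, where 7.42% of genes passed in either direction, 1 of 20 such neighbours rose and 2 fell, none of them beside F2RL3. Those neighbours were partly other genes, as each line has its own gene list. Beside F2RL3 they were TMEM38A, SIN3B, CPAMD8 and HAUS8. In HL-60 all 4 neighbours of F2RL3 rose: SIN3B by 0.31 (SE 0.037, adjusted p = 2.29e-05 by limma), MYO9B by 0.18, HAUS8 by 0.15 and SMIM7 by 0.099. SIN3B, a corepressor scaffold, read 10.77, 10.66 and 10.79 in DMSO, 10.69, 10.59 and 10.66 with DAC, and 10.95, 10.98 and 10.95 with NTX-301. Its NTX-301 values lay above the other 6, and the DAC and DMSO values overlapped.

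RAB7B, a small GTPase gene of late endosomes beside RHEX, followed the RHEX order. It read 10.71, 10.74 and 10.74 in DMSO, 11.09, 11.05 and 11.06 with DAC, and 11.37, 11.41 and 11.41 with NTX-301, with no overlap. It rose by 0.33 over DAC (SE 0.026, adjusted p = 5.19e-07 by limma) and by 0.67 over DMSO, and in MOLM-13 by 0.20 over DMSO. On the same side of RHEX, LOC103021295 fell by 0.10 against DAC. Against DAC the neighbours of MMP2 did not follow it: LPCAT2 was lower by 0.21 and CAPNS2 by 0.11, and IRX5 and CRNDE did not pass (-0.036 and -0.021). Compared with DMSO, none of these 4 neighbours fell with either drug. With NTX-301, 1 of them rose over DMSO, IRX5 by 0.35, and the smallest difference was 0.018. With DAC, 3 of the 4 rose over DMSO, and the differences ran from 0.039 to 0.39. Beside AHNAK, ASRGL1 rose by 0.10 against DAC and EEF1G, RCC2P6 and MIR6747 did not pass. Beside KCNH2, AOC1 rose by 0.22 and GIMAP1 by 0.069, and CDK5 and ABCB8 did not pass, although CDK5 fell by 0.25 against DMSO. Values of EEF1G, RCC2P6, RPL22P4 and FAM72A are uncertain, since each shares sequence with near-identical copies. In RefSeq, uncharacterized genes overlap KCNH2 (LOC124901776) and RHEX (LOC105372857 and LOC124900428); the library kit keeps strand, but the sources do not say whether counting used it.

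**Figure D5:**
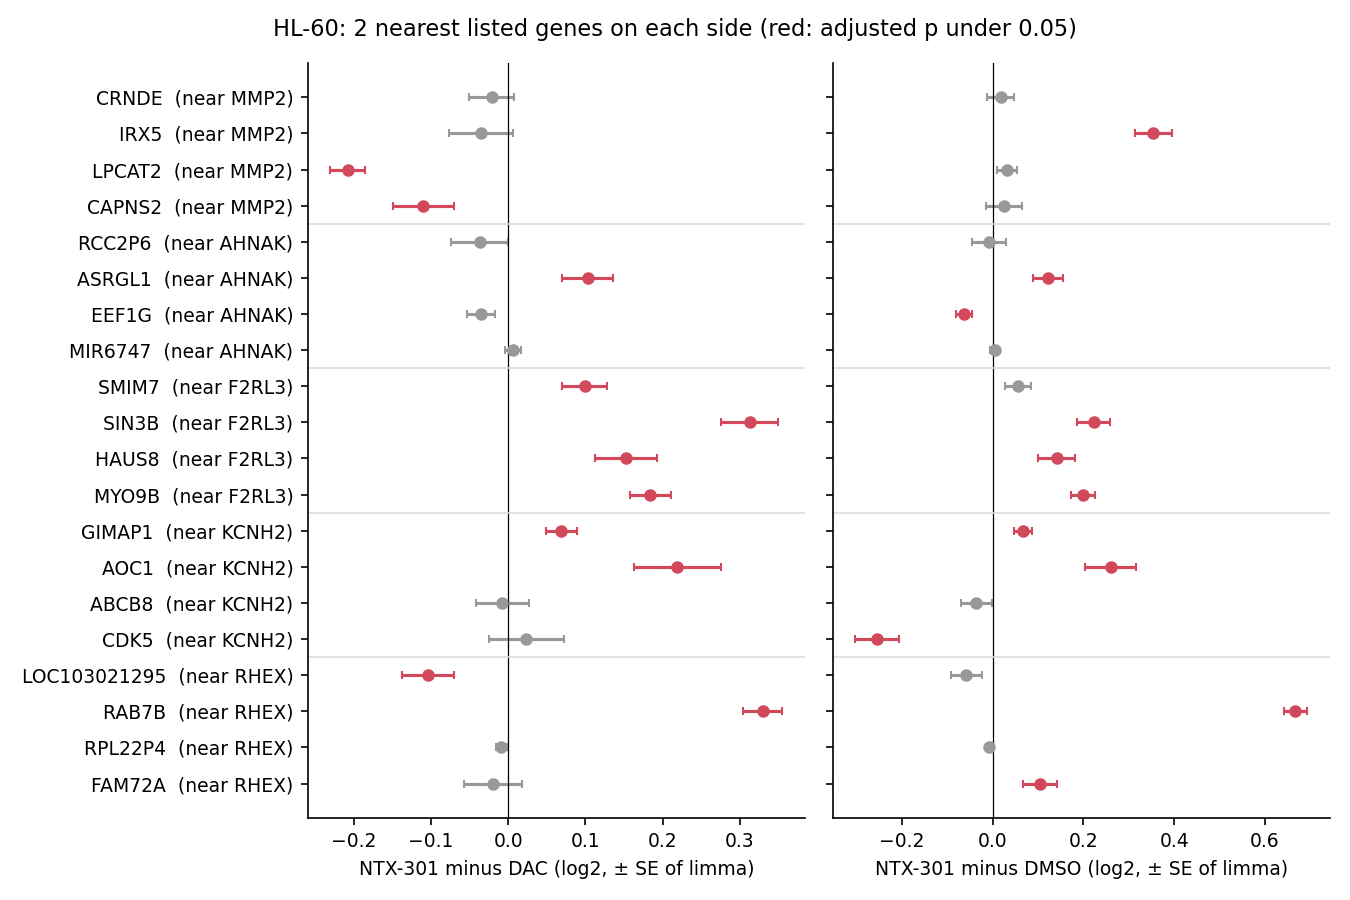
Log2 difference in HL-60 of the 20 genes beside the 5, NTX-301 minus DAC (left) and NTX-301 minus DMSO (right), with the SE of limma; red points passed the adjusted threshold of 0.05. All 4 genes beside F2RL3 lie above 0 on the left (0.099 to 0.31), and RAB7B beside RHEX lies furthest right in both panels.

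Some markers of blood cell types moved beside the 5 genes in HL-60, and their part in the results was not tested. The summed linear value of the 6 granulocytic precursor genes was 526600 to 559600 in DMSO, 523800 to 525200 with DAC and 405900 to 415400 with NTX-301. MPO gave most of that sum, 427600 on average in DMSO. Against DAC 5 of the 6 fell (15% of all genes fell), PRTN3 by 0.82 and ELANE by 0.51 among them. CD33 rose by 0.15 (15.4% of all genes rose). Of 6 mast cell and basophil markers, 3 were listed (CPA3, MS4A2 and GATA2), and their sum rose in the order of the RHEX groups, 2387 to 2493, 3851 to 4096 and 5597 to 5690, while TPSAB1, HDC and FCER1A were not listed. GATA2, also among the profiles nearest to RHEX, made up most of the sum (means of 2011, 3443 and 5043), and MS4A2 stood at 216.4, 229.8 and 223.9 and passed in no contrast. ITGA2B, the 1 of 6 megakaryocyte and platelet markers listed, gave 236.7 to 249.6, 360.9 to 373.1 and 448.8 to 459.9, and PF4, PPBP, GP9, GP1BA and TUBB1 were not listed. The 2 erythroid markers listed of 6, EPOR and KLF1, summed to 211.1 to 230.0, 239.5 to 244.8 and 228.3 to 247.8. Of the 6 monocytic markers 3 were listed, at 5528 to 5730, 6540 to 6860 and 5272 to 5518, and CD14 was not among them. LYZ made up most of that sum (means of 4968, 5902 and 4727). With NTX-301 against DAC, LYZ fell by 0.32 and FCGR1A by 0.21 (15% of all genes fell), while CSF1R rose by 0.34 (15.4% rose). Against DMSO, LYZ fell by 0.072, FCGR1A did not pass (-0.043) and CSF1R rose by 0.42, where 19.2% of all genes fell and 18.3% rose. None of 6 fibroblast markers was listed for HL-60. In such bulk samples, more cells of a type and more RNA per cell cannot be told apart.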

How the data were processed

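Stranded total RNA libraries of HL-60 and MOLM-13 (3 treatments, 3 replicates each) were measured. The authors deposited log2 normalized values, 1 per gene and sample; the normalization method is not given in the sources used here. The submitters' processing notes name FastQC, Trimmomatic 0.38, HISAT2, StringTie and hg19, with no role or order. Since the gene lists differ between lines, each line was analysed apart. Read depth is unknown, so precision rests on the replicates.

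Differences were fitted with limma 3.58.1 in R 4.3.3 (lmFit, eBayes with trend, two-sided) on the 9 samples of a line, with Benjamini-Hochberg adjustment over all genes tested and a threshold of 0.05. A gene was tested if 3 or more samples reached a linear value of 1, as 17046 of 17110 did in HL-60 and 17475 of 17475 in MOLM-13. The fit was tested on simulated data. Named genes were the 5 genes, up to 3 genes of each list, line and contrast with the largest called differences, the 3 nearest profiles of each gene, the flanking genes and those beside the lowest-ranked gene; NLRC3, SLC2A3, FSCN1, CD48, HK3, CD82, EPOR, S100A10 and the markers were named beyond this rule, after their values were seen. The 5 genes and all lists were chosen with earlier results of these data known. Alternatives were centring, quantile normalization, no trend, other filters, a replicate block, pairwise fits and leaving out each replicate. Sequences and gene order came from RefSeq (GRCh38.p14); no coordinates of hg19 are given.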

Additional observations from a re-analysis of the deposited data

Results flagged for a closer look

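Among the named genes and the cell type markers, and over NTX-301 minus DAC and NTX-301 minus DMSO, 13 lay in opposite directions in HL-60 and MOLM-13: the groups compared did not overlap in either line, and the higher group was not the same one; the difference between lines was not tested. Of the 5 genes, only AHNAK and RHEX had values in both lines and could appear, and neither was among them. For NTX-301 minus DAC, ASRGL1 differed by 0.10 in HL-60 and by -0.13 in MOLM-13, KCNE3 by 0.12 and -0.17, PROCR by 0.078 and -0.17, RGS18 by 0.12 and -0.29, SH2B3 by 0.14 and -0.12, STAT5A by 0.24 and -0.083, CSF1R by 0.34 and -0.11, ITGA2B by 0.31 and -0.047, and CTSG by -0.30 and 0.16. For NTX-301 minus DMSO, HAUS8 differed by 0.14 in HL-60 and by -0.23 in MOLM-13, SH2B3 by 0.27 and -0.13, CTSG by -0.21 and 0.094, AZU1 by -0.25 and 0.20, ELANE by -0.475 and 0.094, and LYZ by -0.072 and 0.12. DAC minus DMSO was not searched. Groups without overlap were common in HL-60. Of all genes there, 22.2% lay higher without overlap for NTX-301 minus DAC and 23.3% for NTX-301 minus DMSO. Those shares cover HL-60 alone and the higher direction alone. The share of all genes in opposite directions in the lines was not counted, so nothing is read from the number 13. In MOLM-13, ITGA2B (adjusted p = 0.314 by limma) and CSF1R (0.182) did not pass for NTX-301 minus DAC. ELANE did not pass there for NTX-301 minus DMSO (adjusted p = 0.129 by limma).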

How the results depend on the processing

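The 5 genes kept their direction in HL-60 under every alternative run. The alternatives reuse the samples from which the genes were chosen, so the kept direction and the ranges below are a description and no independent support. NTX-301 minus DAC ranged over the fits that leave out 1 replicate from 1.21 to 1.28 for MMP2, 0.90 to 0.94 for AHNAK, 0.86 to 0.96 for F2RL3, 0.31 to 0.39 for KCNH2 and 0.75 to 0.78 for RHEX, and RHEX was 0.74 with each sample centred on its median. In MOLM-13 the RHEX difference NTX-301 minus DMSO ranged from 0.15 to 0.20. Same-numbered replicates did not deviate together (correlations of -0.057 to 0.118 in HL-60 and -0.16 to 0.11 in MOLM-13), so the numbers pair nothing by the data. With a replicate block, 817 genes were called for NTX-301 minus DAC in MOLM-13 against 1297 without it, and leaving out 1 replicate gave 462 (without NTX-301 replicate 3) to 1322, with 479 without NTX-301 replicate 2 and 767 without DAC replicate 1. With a difference of at least 0.5 also asked for, the genes called numbered 101, 208 and 96 in HL-60 (NTX-301 minus DAC, NTX-301 minus DMSO, DAC minus DMSO) and 13, 197 and 158 in MOLM-13. Centring turned the split of higher and lower calls from 2622 and 2563 to 1818 and 4860 for NTX-301 minus DAC in HL-60, from 3115 and 3265 to 2310 and 5400 for NTX-301 minus DMSO, and in MOLM-13 from 3543 and 4337 to 2735 and 5760 for NTX-301 minus DMSO and from 2689 and 3705 to 1960 and 5731 for DAC minus DMSO. Over the settings run for the other named genes, 6170 results kept their outcome, which includes results called neither before nor after. A call was lost in 274 and gained in 78, and 3 results reversed. These were RPL22P4 (DAC minus DMSO in HL-60, -0.0109 without DAC replicate 1, and up to 0.0062 without another), and under quantile normalization LMO2 (NTX-301 minus DMSO in MOLM-13, 0.0174) and INPP5D (DAC minus DMSO in MOLM-13, 0.0152). List counts moved as well. Centring took the genes higher with NTX-301 against DAC in HL-60 from 2 to 1 (AHNAK partners), 7 to 3 (thrombin receptor) and 5 to 3 (potassium channels), took the AHNAK partners higher against DMSO from 7 to 4 and the metalloproteinase list's lower count from 1 to 3 (2 with the block or in the pairwise fit), and in MOLM-13 took the potassium channels lower from 3 to 5. Quantile normalization, for NTX-301 minus DMSO in MOLM-13, took the metalloproteinase list to 9 higher and 1 lower, the AHNAK partners to 0 lower, the thrombin receptor list to 2 lower and the erythroid list to 6 higher and 4 lower; the erythroid higher count was 5 with the stricter filter and 5 with the block. Over the fits without 1 replicate, the counts ranged from 1 to 3 (AHNAK partners higher against DAC in HL-60), 3 to 5 (potassium channels, same contrast), 2 to 5 (potassium channels higher against DMSO in HL-60), 1 to 2 (metalloproteinase list, lower), and in MOLM-13 from 3 to 6 (potassium channels, higher), 2 to 5 (erythroid, higher) and 4 to 7 (erythroid, lower). The cause of these moves was not tested. Depth is unknown, and the drawing together of low values limits what F2RL3 and other low genes can show.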
